A study of Homo sapiens with 15 samples.

Results

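Genes that drive cell division were examined in Caco-2 cells, a line from a human colon carcinoma that resembles the absorptive gut lining once confluent, after exposure to a commercial rinse aid. The set comprised 52 mitosis and spindle genes named by symbol, and each was found by its Ensembl identifier in the 15 count files, 52 of the 60557 genes that the files share. Cells grown as monolayers had been given rinse aid at a dilution of 1:10000 or of 1:40000 for 24 h, or had been left unexposed as controls, with 5 RNA-seq libraries in each of the 3 groups. Every group was the same single cell line, and the labels do not say whether replicates came from separate cultures, so that the p-values reflect spread among these libraries, which may be technical. Rinse aid at 1:10000 is the stronger of the 2 dilutions.

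A dividing cell enters mitosis when CDK1 bound to a B-type cyclin is switched on by CDC25 phosphatases. Condensins and topoisomerase II then compact the chromosomes, kinetochores couple them to spindle microtubules under the watch of the spindle checkpoint, and kinesins and microtubule-associated proteins build the spindle. The anaphase-promoting complex with CDC20 releases the sister chromatids, and a contractile ring divides the cell. Transcripts of these genes accumulate late in the cell cycle under FOXM1 and the MuvB-B-MYB complex, and in the gut epithelium they mark the dividing cells of the crypt. In a confluent Caco-2 sheet division slows as the cells differentiate. Because bulk RNA was measured, fewer dividing cells and less mitotic RNA per cell cannot be told apart.

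Alignment differed between exposed and unexposed libraries. Per the file headers, the 5 unexposed libraries had been aligned with RNA STAR against an annotation of 60649 genes, and the 10 rinse aid libraries with HISAT2 against one of 61544 genes, so that there the exposure and the choice of aligner and annotation cannot be told apart. The comparison of 1:10000 with 1:40000 shares both. Annotated pseudogenes took 0.69 to 0.73% of counts at 1:10000, 0.63 to 0.67% at 1:40000 and 0.21 to 0.25% in unexposed cells. The part of reads shared with pseudogenes in the results was not tested. Total counts ran from 5489425 to 9555632 at 1:10000, from 2551839 to 172092447 at 1:40000 and from 4333226 to 14230853 in unexposed cells, and the deepest and the shallowest library were 1:40000 replicates 1 and 2. Mitochondrially encoded transcripts took 5.85 to 7.16% of counts at 1:10000, 1.96 to 3.30% at 1:40000 and 1.41 to 1.80% in unexposed cells. Replicates 1 and 2 had 3.30 and 3.10% at 1:40000, beside 1.96 to 2.07% in replicates 3 to 5. In unexposed cells they had 1.80 and 1.72%, beside 1.41 to 1.53%. The set itself took 0.681 and 0.680% of counts in unexposed replicates 1 and 2, beside 0.757 to 0.765% in replicates 3 to 5. At 1:40000 it took 0.651 and 0.666%, beside 0.596 to 0.630%. At 1:10000 neither share split so. The labels name no batch, and the part of these differences in the results was not tested. The epithelial markers VIL1, CDH1, EPCAM, KRT8, KRT18, KRT19, CDX2 and CLDN3 were expressed in all groups, whereas KRT20, CDX1, LGALS4 and GPA33 averaged under 1 CPM in each, where CPM are counts scaled to a common effective library size. Of 9 fibroblast markers 5 exceeded 1 CPM, and their sum ran from 89.3 to 109 CPM at 1:10000, from 139 to 163 CPM at 1:40000 and from 178 to 194 CPM in unexposed cells, while COL1A2, DCN, THY1 and FAP stayed near 0. The sums of 6 leukocyte markers ran from 20.1 to 29.6 CPM, from 27.1 to 39.5 CPM and from 24.4 to 31.6 CPM, and those of 4 endothelial markers from 3.26 to 4.27 CPM, from 7.41 to 11.6 CPM and from 3.77 to 10.8 CPM, at 1:10000, at 1:40000 and in unexposed cells. PTPRC, CD3E, ITGAM, CDH5, VWF and KDR averaged under 1 CPM in each group. The other 3 of the 6 leukocyte markers and the endothelial marker PECAM1 averaged over 1 CPM in each. The fibroblast markers over 1 CPM were COL1A1, COL3A1, LUM, PDGFRA and PDGFRB. The part of these markers in the results was not tested.

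Promoters of these genes often carry a CHR element, which MuvB complexes bind, and CCAAT boxes, which NF-Y binds. RefSeq (GRCh38.p14) promoter windows, from 250 bases before to 50 after a transcript start, were at hand for 45 of the 52 genes, with 60 windows in all, some of them overlapping. The core of the CHR, searched as TTTGAA or its reverse complement TTCAAA, was present in 65.0% of these windows and in 15.2% of all 35116 windows. CCAAT or its reverse complement ATTGG was present in 70.0% and 34.6%, and the 2 motifs can overlap by a few bases. The 120 bases before the start are shown for the 4 genes with strong falls in which little annotated exon lies in the window (MKI67, ASPM, CENPF and KIF14), for the kinesin KIF11 and the protease gene ESPL1, which fell less, and for CDK1, which rose. These 7 were chosen after their values were seen. Capitals mark matches to either motif, and each sequence reads 5′ to 3′ on the gene's strand.

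MKI67, chr10:128126424-128126543, minus strand: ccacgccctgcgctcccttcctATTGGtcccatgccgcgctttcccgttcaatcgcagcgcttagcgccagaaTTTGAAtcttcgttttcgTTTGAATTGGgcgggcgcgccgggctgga
ASPM, chr1:197146670-197146789, minus strand: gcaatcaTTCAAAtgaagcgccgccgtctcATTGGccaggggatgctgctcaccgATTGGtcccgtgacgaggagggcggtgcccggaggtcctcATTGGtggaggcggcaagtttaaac
CENPF, chr1:214603075-214603194, plus strand: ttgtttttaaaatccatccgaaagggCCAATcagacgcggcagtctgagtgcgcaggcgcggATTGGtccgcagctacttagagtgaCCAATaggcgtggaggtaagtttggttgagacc
KIF14, chr1:200620752-200620871, minus strand: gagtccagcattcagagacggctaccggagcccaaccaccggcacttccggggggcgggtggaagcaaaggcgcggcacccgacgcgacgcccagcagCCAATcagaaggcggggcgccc
KIF11, chr10:92593010-92593129, plus strand: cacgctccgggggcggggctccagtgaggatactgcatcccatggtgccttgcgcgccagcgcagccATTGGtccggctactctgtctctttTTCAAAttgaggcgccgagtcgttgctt
ESPL1, chr12:53268179-53268298, plus strand: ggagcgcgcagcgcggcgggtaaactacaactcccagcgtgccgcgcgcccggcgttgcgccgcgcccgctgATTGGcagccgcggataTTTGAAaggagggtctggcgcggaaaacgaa
CDK1, chr10:60778358-60778477, plus strand: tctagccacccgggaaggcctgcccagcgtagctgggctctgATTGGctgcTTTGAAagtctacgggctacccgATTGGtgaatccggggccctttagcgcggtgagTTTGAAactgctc

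MKI67 carried 2 CHR cores close to the start, 1 of them overlapping an inverted CCAAT box. The CDK1 stretch shown also carried 2 CHR cores and 2 inverted CCAAT boxes, although the transcript of MKI67 fell and that of CDK1 rose. That CDK1 stretch precedes a later transcript start and lies inside the annotated gene, which begins at chr10:60778331. In the window at the gene's annotated start, CDK1 had a CHR core at -161 and a CCAAT box at -150, and no match closer to that start. The likeness to MKI67 therefore depends on the start chosen. CENPF and KIF14 carried CCAAT boxes without a CHR core in the stretch shown. Over the 60 windows, 26 of 52 CHR core matches began within the last 50 bases before the start and 41 of 83 CCAAT matches began between 100 and 51 bases before it.

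**Figure D1:**
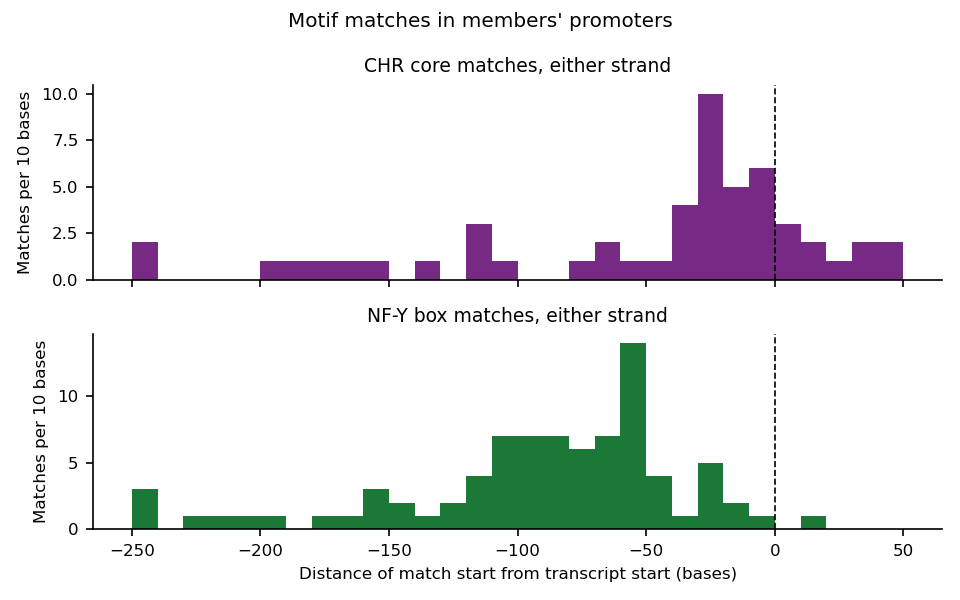
Number of matches to the CHR core (upper panel) and to the CCAAT box, the motif of NF-Y (lower panel), per 10 bases of the promoter windows of 45 mitosis and spindle genes, against the distance of the match from the transcript start in bases. Matches on either strand count, and a match in overlapping windows of 1 gene counts in each window. CHR core matches gather in the last 50 bases before the start and CCAAT matches somewhat further upstream.

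Under the stronger dilution far more of these genes fell than rose, while the share that fell at least 2-fold was near that of all tested genes. Of the 51 tested genes, 27 fell and 7 rose at 1:10000 relative to unexposed cells (edgeR quasi-likelihood test, adjusted p under 0.05). Across all 13157 tested genes, 71.0% passed the same test, 36.2% lower and 34.8% higher, so the set had no more calls than other genes and more of them were downwards. The median log2 fold change over the set was -0.19, against -0.02 over all tested genes. At least 2-fold lower were 7 of the set, namely MKI67, ASPM, CENPF, KIF14, CENPE, KIF20A and SPC25, where 11.6% of all tested genes were. In 19 genes each 1:10000 library lay below each unexposed library and in 5 each lay above, against 29.0% and 28.8% of all tested genes. NUSAP1, with 0 to 15 reads per library, did not pass the low-count filter and was the remaining member. Among the 34 tested genes with a CHR core in a promoter window, 17 were lower and 5 higher at 1:10000, and 19 lower and 2 higher at 1:40000, than in unexposed cells. Of the 10 without one, 7 were lower and 1 was higher at 1:10000, and 4 were lower and 1 was higher at 1:40000. Between the dilutions, 13 were lower and 9 higher with the core, and 3 were lower and 1 was higher without it. The difference between the classes was not tested.

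At 1:40000, 25 genes fell and 4 rose relative to unexposed cells, where 52.1% of all genes were called, 26.0% lower and 26.1% higher. MKI67, ASPM, CENPF, KIF14 and KIF20A fell less than at 1:10000, and 2 genes, SPC25 and CENPE, were at least 2-fold lower, where 3.67% of all tested genes were. The set median was -0.18. In 19 genes each 1:40000 library lay below each unexposed library and in 1, UBE2C, each lay above, against 18.1% and 18.1% of all tested genes. The count of 4 that rose, AURKB, CDK1, MAD2L1 and UBE2C, was 2 without 1:40000 replicate 1 or 2 or without unexposed replicate 2, and 0 without 1:40000 replicates 1 and 2 together, the deepest and the shallowest library. Both comparisons use the same unexposed libraries, so their results are not independent.

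Between the dilutions, which share aligner and annotation, 18 genes were lower and 11 higher at 1:10000 than at 1:40000. Over all genes 57.3% were called, 29.0% lower and 28.3% higher. The set median was -0.05. With upper-quartile scaling the split was 19 lower and 7 higher, and over all genes it moved from 3821 lower and 3721 higher to 4289 and 3323. In 13 genes each 1:10000 library lay below each 1:40000 library and in 6 each lay above, against 19.8% and 20.5% of all tested genes. The 3 genes at least 2-fold lower were MKI67, CENPF and ASPM, against 5.65% of all tested genes, and the largest rise was in ECT2. The number higher was 6 without 1:40000 replicate 5 and 7 without 1:40000 replicate 4. Summed over the 52 genes, the level was 5843 ± 308 CPM at 1:10000, 6159 ± 304 CPM at 1:40000 and 6990 ± 448 CPM in unexposed cells (SD, n = 5 each, as for all means below).

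**Figure D2:**
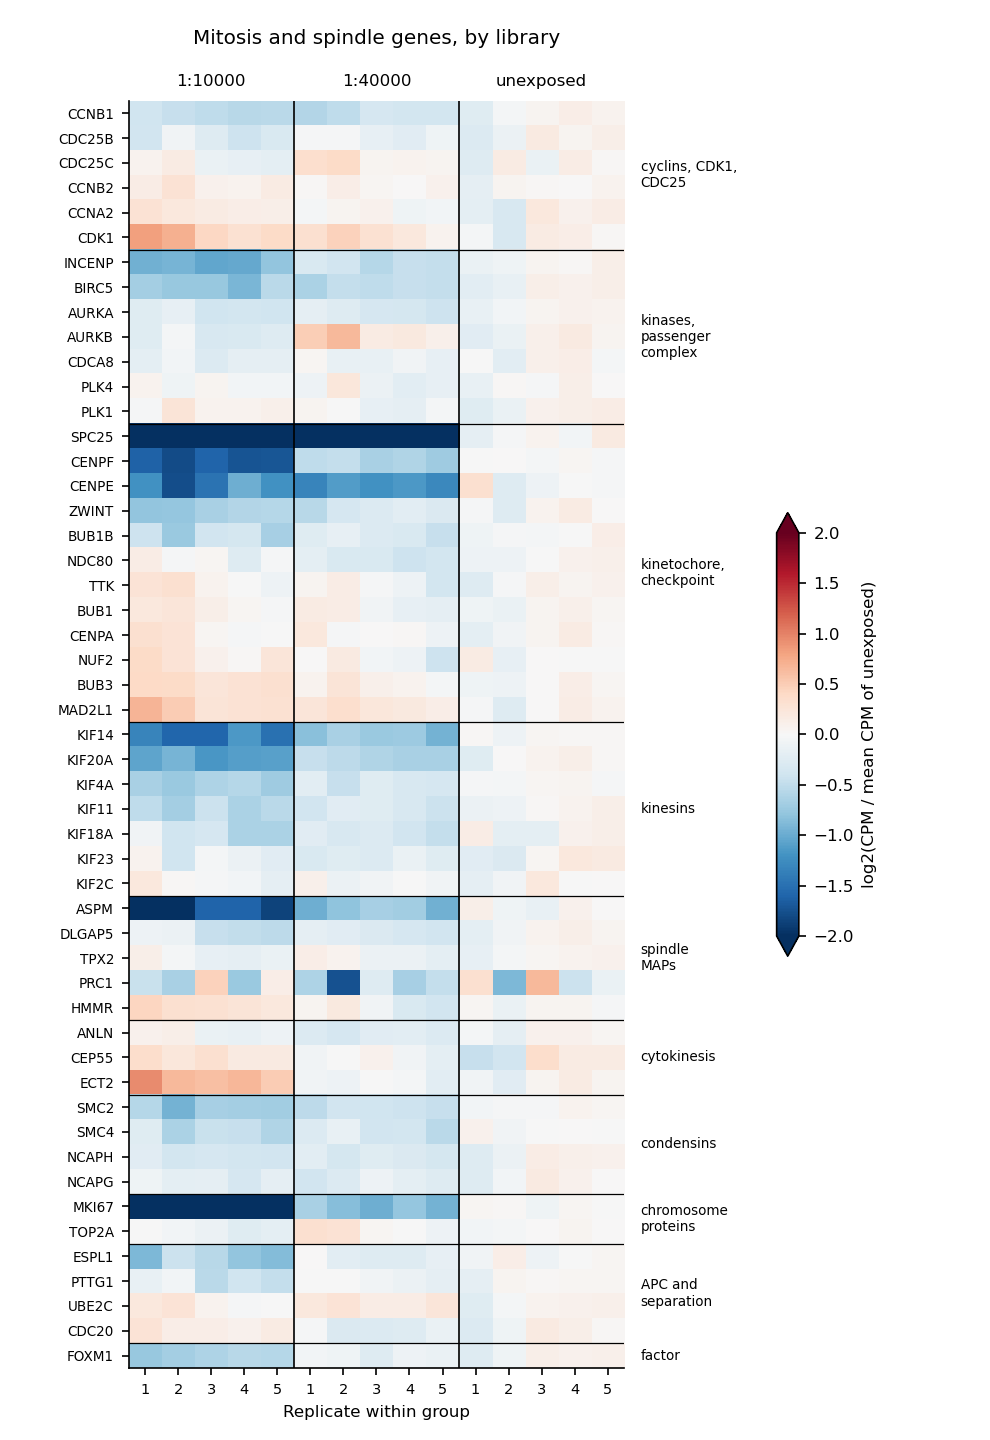
Level of each of the 51 tested genes in each of the 15 libraries, as log2 of the CPM over the mean CPM of the 5 unexposed libraries (blue lower, red higher, with colours at full strength from 2 log2 units). Columns are the 5 libraries at 1:10000, at 1:40000 and unexposed, and rows are grouped by role. The long-coding genes MKI67, ASPM, CENPF, CENPE and KIF14 form the darkest blue rows at 1:10000 beside SPC25, and ECT2 the reddest.

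Among the cyclins and the enzymes that trigger entry into mitosis, the members moved in different directions. CCNB1, the B-type cyclin that activates CDK1, had 211, 202, 195, 189 and 192 CPM at 1:10000, 186, 196, 219.5, 215 and 215 CPM at 1:40000 and 234, 269.9, 289.5, 304 and 293 CPM in unexposed cells. No library of either dilution reached the lowest unexposed library, and CCNB1 was lower at 1:10000 (log2 fold change -0.49 ± 0.07, edgeR adjusted p = 4.09e-07) and at 1:40000 (log2 fold change -0.43 ± 0.07, edgeR adjusted p = 7.15e-06). The difference between the dilutions was -0.06 ± 0.07 (edgeR adjusted p = 0.449). CCNB2, the second B-type cyclin, rose slightly at 1:10000, with means of 121 ± 7.24 CPM at 1:10000, 114 ± 3.82 CPM at 1:40000 and 109 ± 7.13 CPM in unexposed cells (log2 fold change 0.15 ± 0.06, edgeR adjusted p = 0.0311). This call was lost without 1:10000 replicate 2 or unexposed replicate 1 or 4 (log2 fold change 0.11 to 0.15), and with no low-count filter (0.16). The ratio of CCNB1 to CCNB2 in CPM accordingly ran from 1.52 to 1.74 at 1:10000, from 1.64 to 1.96 at 1:40000 and from 2.40 to 2.76 in unexposed cells, with neither dilution overlapping the unexposed libraries.

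CDK1, the kinase itself, had 414, 384, 312, 290.0 and 307 CPM at 1:10000, 295, 324, 290.0, 271 and 245 CPM at 1:40000 and 227, 188, 262, 258 and 239 CPM in unexposed cells. Replicates 1 and 2 at 1:10000 were the highest of all libraries, and each 1:10000 library lay above each unexposed library. CDK1 rose at 1:10000 (log2 fold change 0.54 ± 0.11, edgeR adjusted p = 1.72e-04) and less so at 1:40000 (log2 fold change 0.28 ± 0.11, edgeR adjusted p = 0.0354). The 1:40000 call was lost without 1:40000 replicate 1, 2 or 3 or unexposed replicate 1 or 2 (log2 fold change 0.20 to 0.28) and with replicate number as a block (edgeR adjusted p = 0.0833), as well as without 1:40000 replicates 1 and 2 together (0.20). Between the dilutions the fold change was 0.26 ± 0.11 (edgeR adjusted p = 0.0396, and 0.0792 with the replicate block). It was also lost without 1:10000 replicate 1 or 2 or 1:40000 replicate 1, 3, 4 or 5 or unexposed replicate 1 or 5 (log2 fold change 0.19 to 0.28). The call was lost too with upper-quartile scaling, with no low-count filter or with the trend on coding length removed (0.20 to 0.25). The Ensembl version of CDK1 differs between the 2 annotations.

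CCNA2, the A-type cyclin of S phase and early mitosis, averaged 216 ± 10.7 CPM at 1:10000, 189 ± 9.87 CPM at 1:40000 and 189.5 ± 29.7 CPM in unexposed cells, and rose at 1:10000 (log2 fold change 0.19 ± 0.08, edgeR adjusted p = 0.0383), a call lost without 1:10000 replicate 1 or 3 or unexposed replicate 1 or 2 (log2 fold change 0.11 to 0.20). Against 1:40000 it was higher by 0.19 ± 0.08 (edgeR adjusted p = 0.0428). This was lost without 1:10000 replicate 1, 2, 3 or 4 or 1:40000 replicate 1, 4 or 5 or unexposed replicate 1 or 5 (log2 fold change 0.17 to 0.20). The call was lost too with upper-quartile scaling, with no low-count filter or without 1:40000 replicates 1 and 2 together (0.12 to 0.21). Of the phosphatases that activate CDK1, CDC25B fell at 1:10000 to 88.4 ± 8.52 CPM, against 107 ± 13.4 CPM in unexposed cells (log2 fold change -0.28 ± 0.08, edgeR adjusted p = 0.00303), with 99.8 ± 6.34 CPM at 1:40000. Between the dilutions CDC25B differed by -0.18 ± 0.08 (edgeR adjusted p = 0.0636, and 0.0440 with the replicate block). It was also called without 1:10000 replicate 2 or 1:40000 replicate 4 or unexposed replicate 1 or 5 (log2 fold change -0.22 to -0.19), with upper-quartile scaling, with no low-count filter and fitted on the compared groups alone (-0.25 to -0.18). CDC25C stood at 40.1 ± 4.62 CPM at 1:10000, 47.1 ± 5.38 CPM at 1:40000 and 41.4 ± 5.09 CPM in unexposed cells. It was not called against unexposed cells and was lower at 1:10000 than at 1:40000 by 0.22 on the log2 scale (edgeR adjusted p = 0.0492). That call was lost without 1:10000 replicate 3, 4 or 5 or 1:40000 replicate 1 or 2 or unexposed replicate 3 or 4 (log2 fold change -0.22 to -0.16). The call was lost too with RLE size factors, TMM from protein-coding genes of unchanged version, DESeq2 or without 1:40000 replicates 1 and 2 together (-0.22 to -0.096).

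The chromosomal passenger complex, which corrects faulty attachments and later guides cytokinesis, had less transcript of its scaffold and of survivin after exposure. INCENP, the scaffold, had 49.7, 51.1, 47.3, 47.7 and 55.9 CPM at 1:10000, 78.4, 74.5, 65.5, 70.2 and 69.7 CPM at 1:40000 and 88.7, 91.1, 101, 99.1 and 105 CPM in unexposed cells. The 3 groups did not overlap, and INCENP fell at 1:10000 (log2 fold change -0.95 ± 0.07, edgeR adjusted p = 1.72e-11) and at 1:40000 (log2 fold change -0.44 ± 0.07, edgeR adjusted p = 1.05e-05), and was lower at 1:10000 than at 1:40000 (log2 fold change -0.51 ± 0.07, edgeR adjusted p = 1.71e-06). BIRC5, which encodes survivin, had 80.3, 76.7, 76.5, 68.8 and 89.2 CPM at 1:10000, 83.7, 92.4, 90.8, 94.2 and 92.6 CPM at 1:40000 and 111, 116, 141, 137 and 140.3 CPM in unexposed cells. Every exposed library lay below every unexposed one (log2 fold change -0.72 ± 0.08, edgeR adjusted p = 6.95e-09 at 1:10000 and log2 fold change -0.52 ± 0.08, edgeR adjusted p = 3.33e-06 at 1:40000). Its difference between the dilutions was -0.21 ± 0.08 (edgeR adjusted p = 0.0237). It was lost without 1:10000 replicate 2 or 4 or 1:40000 replicate 4 (log2 fold change -0.19 to -0.16), and with DESeq2 (-0.19). CDCA8, or borealin, fell by 0.17 on the log2 scale at 1:10000 (edgeR adjusted p = 0.0439), to 46.8 ± 2.53 CPM, against 52.8 ± 4.86 CPM in unexposed cells. That call was lost without 1:10000 replicate 1, 3, 4 or 5 or 1:40000 replicate 2 or 4 or unexposed replicate 1, 3 or 4 (log2 fold change -0.18 to -0.14). It was lost too with RLE size factors, TMM from protein-coding genes of unchanged version, DESeq2 or no low-count filter, in the subset of genes without annotation doubts, fitted on the compared groups alone and without 1:40000 replicates 1 and 2 together (-0.17 to -0.15).

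AURKB, the kinase of that complex, was lower at 1:10000, as its partners were, but higher at 1:40000, and neither call held in every alternative. It had 34.8, 40.1, 32.9, 33.1 and 34.5 CPM at 1:10000, 58.0, 64.2, 45.9, 46.8 and 43.9 CPM at 1:40000 and 34.9, 37.4, 44.2, 46.4 and 42.5 CPM in unexposed cells. All 5 libraries at 1:10000 lay below all 5 at 1:40000, where replicates 1 and 2 were the highest, and the unexposed libraries overlapped both. AURKB was lower at 1:10000 than at 1:40000 (log2 fold change -0.55 ± 0.10, edgeR adjusted p = 6.20e-05). Relative to unexposed cells it rose at 1:40000 (log2 fold change 0.31 ± 0.10, edgeR adjusted p = 0.0118), which was lost without 1:40000 replicate 1 (log2 fold change 0.23) and without 1:40000 replicates 1 and 2 together (0.15, edgeR adjusted p = 0.193), and fell at 1:10000 (log2 fold change -0.24 ± 0.10, edgeR adjusted p = 0.0424). The fall was lost without 1:10000 replicate 1, 3, 4 or 5 or unexposed replicate 3, 4 or 5 (log2 fold change -0.23 to -0.19). The fall was lost too with RLE size factors, TMM from protein-coding genes of unchanged version, DESeq2, no low-count filter or in the subset of genes without annotation doubts (-0.23 to -0.21).

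AURKA, the kinase that matures centrosomes, fell at both dilutions, with means of 233 ± 17.5 CPM at 1:10000, 234 ± 14.8 CPM at 1:40000 and 289 ± 19.7 CPM in unexposed cells (log2 fold change -0.31 ± 0.06, edgeR adjusted p = 1.11e-04 at 1:10000 and log2 fold change -0.31 ± 0.06, edgeR adjusted p = 2.32e-04 at 1:40000). Its difference between the dilutions was 0.00 ± 0.06. PLK1, which acts from mitotic entry to cytokinesis, averaged 216 ± 15.01 CPM at 1:10000, 194 ± 13.9 CPM at 1:40000 and 202 ± 23.3 CPM in unexposed cells and was called in none of the 3 comparisons as fitted (0.09 ± 0.07 at 1:10000 and -0.06 ± 0.07 at 1:40000 against unexposed cells). Between the dilutions PLK1 was called without 1:10000 replicate 1 or 1:40000 replicate 1 (log2 fold change 0.19 to 0.20), with RLE size factors (0.17, edgeR adjusted p = 0.0463) and without 1:40000 replicates 1 and 2 together (0.23, edgeR adjusted p = 0.0138). PLK4, the kinase of centriole duplication, was likewise called in none, with 25.5 ± 1.23 CPM at 1:10000, 24.6 ± 3.18 CPM at 1:40000 and 25.7 ± 1.75 CPM in unexposed cells. As fitted, 5 of the 7 kinase and passenger genes fell and none rose at 1:10000, and 3 fell and 1 rose at 1:40000. The shares lower over all tested genes were 36.2% and 26.0%, and the shares higher 34.8% and 26.1%.

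**Figure D3:**
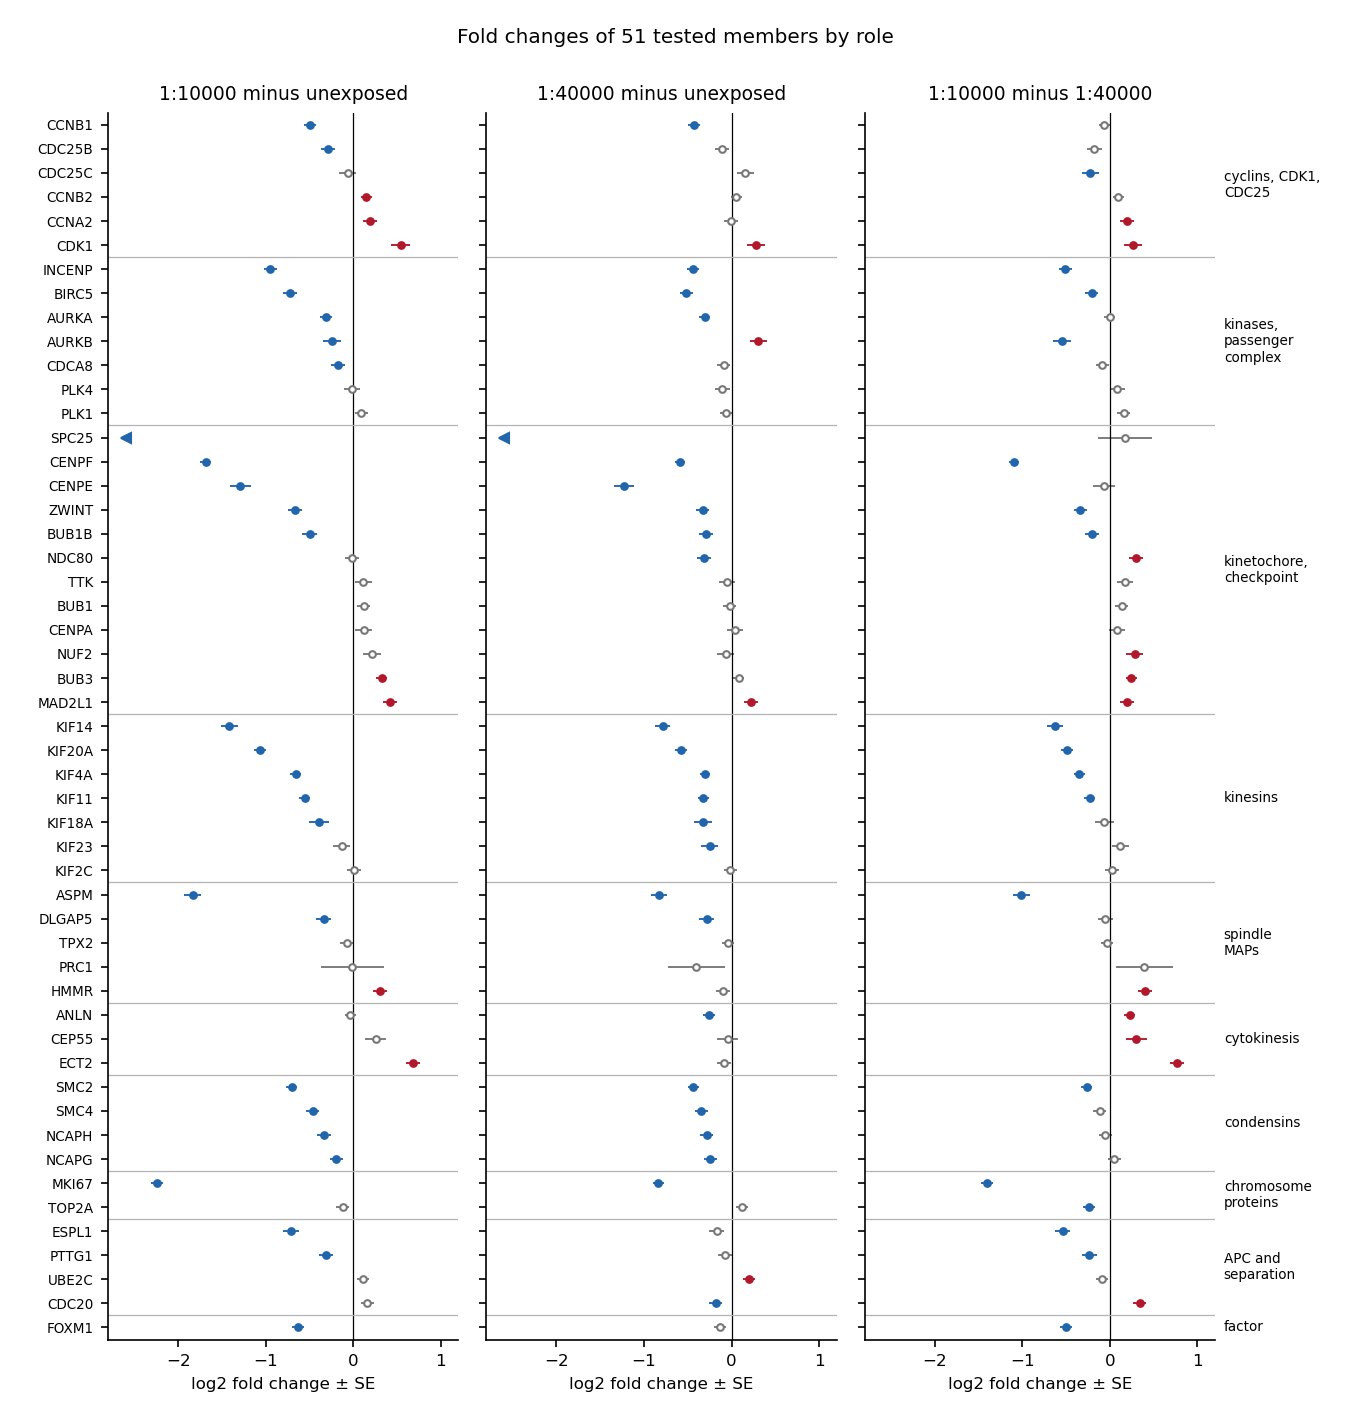
Log2 fold change ± SE of the 51 tested genes in the 3 comparisons, grouped by role (filled blue, lower and filled red, higher at an edgeR adjusted p under 0.05, open grey, not called). SPC25 lies beyond the axis in the comparisons with unexposed cells and is drawn as an arrowhead. The 4 condensins lie left of 0 in both comparisons with unexposed cells, while the cyclins, CDK1 and the CDC25 phosphatases lie on both sides.

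Kinetochore and checkpoint genes were split: 5 of 12 fell and 2 rose at 1:10000, and 6 fell and 1 rose at 1:40000. At 1:10000 the share lower, 41.7%, was near the 36.2% of all tested genes, of which 34.8% were higher. At 1:40000 26.0% of all tested genes were lower and 26.1% higher. CENPF, a large protein of the outer kinetochore and nuclear matrix, had 73.7, 65.7, 74.7, 68.8 and 69.1 CPM at 1:10000, 159, 163, 145, 150.01 and 138 CPM at 1:40000 and 227, 229, 220.1, 234 and 224 CPM in unexposed cells. The 3 groups were far apart, and CENPF was 3.22-fold lower at 1:10000 than in unexposed cells (log2 fold change -1.69 ± 0.06, edgeR adjusted p = 6.80e-18). It was 1.51-fold lower at 1:40000 (log2 fold change -0.59 ± 0.06, edgeR adjusted p = 3.19e-09) and 2.13-fold lower at 1:10000 than at 1:40000 (log2 fold change -1.09 ± 0.06, edgeR adjusted p = 2.72e-13). CENPE, the kinesin that moves chromosomes to the spindle equator, had 15.4, 10.4, 12.7, 18.0 and 15.4 CPM at 1:10000, 14.3, 16.4, 15.3, 16.1 and 14.5 CPM at 1:40000 and 44.3, 29.9, 33.3, 35.6 and 34.9 CPM in unexposed cells. Here the dilutions overlapped fully while both lay below the unexposed libraries, with falls of -1.29 ± 0.12 (edgeR adjusted p = 8.21e-10) and -1.22 ± 0.12 (edgeR adjusted p = 2.61e-09). Between the dilutions CENPE differed by -0.06 ± 0.12. The Ensembl versions of CENPE and CENPF also differ between the annotations.

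SPC25, a subunit of the NDC80 complex that grips microtubules, was almost without reads in all 10 rinse aid libraries. It had 0.702, 1.02, 0.504, 0.61 and 0.31 CPM at 1:10000, 0.495, 0.382, 0.63, 0.805 and 0.41 CPM at 1:40000 and 24.0, 26.7, 28.6, 26.1 and 30.8 CPM in unexposed cells. In reads this was 1 to 86 per rinse aid library and 120 to 384 per unexposed library. SPC25 was 44.1-fold lower at 1:10000 and 49.8-fold lower at 1:40000 than in unexposed cells (edgeR adjusted p = 8.00e-18 and 2.53e-19), and differed between the dilutions by 0.18 ± 0.31. Its partners in the complex behaved otherwise. NDC80 averaged 49.1 ± 4.91 CPM at 1:10000, 39.9 ± 2.22 CPM at 1:40000 and 49.8 ± 3.47 CPM in unexposed cells, with -0.02 ± 0.08 at 1:10000 and a fall at 1:40000 (log2 fold change -0.32 ± 0.08, edgeR adjusted p = 0.00148), and was higher at 1:10000 than at 1:40000 (log2 fold change 0.30 ± 0.08, edgeR adjusted p = 0.00232). NUF2 averaged 34.6 ± 3.53 CPM at 1:10000, 28.8 ± 4.15 CPM at 1:40000 and 30.0 ± 2.39 CPM in unexposed cells and was called between the dilutions, where it was higher at 1:10000 (log2 fold change 0.28 ± 0.10, edgeR adjusted p = 0.0153), a call lost without 1:40000 replicate 5 and with no low-count filter (log2 fold change 0.21 for both). Against unexposed cells NUF2 was called at 1:10000 without 1:10000 replicate 3 or 4 or 1:40000 replicate 1, 2 or 5 or unexposed replicate 1 (log2 fold change 0.21 to 0.26). It was called too with RLE size factors, TMM from protein-coding genes of unchanged version, DESeq2, the replicate block, a fit on the compared groups alone or without 1:40000 replicates 1 and 2 together (0.21 to 0.24). A drop to near 0 in every library made with HISAT2 cannot be told apart from the change of aligner and annotation.

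Of the checkpoint genes, MAD2L1 and BUB3 rose and BUB1B fell. MAD2L1, which holds back the anaphase-promoting complex, had 127, 112, 93.9, 96.1 and 97.3 CPM at 1:10000, 92.8, 98.9, 92.1, 90.4 and 86.6 CPM at 1:40000 and 77.9, 66.0, 79.2, 87.6 and 83.1 CPM in unexposed cells. It rose at 1:10000 (log2 fold change 0.42 ± 0.08, edgeR adjusted p = 8.72e-05), with every 1:10000 library above every unexposed one, and at 1:40000 (log2 fold change 0.22 ± 0.08, edgeR adjusted p = 0.0281), where the call was lost without 1:40000 replicate 2 or unexposed replicate 2 (log2 fold change 0.16 to 0.21) or without 1:40000 replicates 1 and 2 together (0.19). Its difference between the dilutions was 0.20 ± 0.08 (edgeR adjusted p = 0.0425). That one was lost without 1:10000 replicate 1 or 2 or 1:40000 replicate 3, 4 or 5 or unexposed replicate 1, 3 or 5 (log2 fold change 0.13 to 0.20). The call was lost too with upper-quartile scaling, with no low-count filter or with the trend on coding length removed (0.13 to 0.15). BUB3, the partner of BUB1 and BUBR1, averaged 151 ± 6.98 CPM at 1:10000, 128 ± 9.48 CPM at 1:40000 and 119.8 ± 8.09 CPM in unexposed cells, and was higher at 1:10000 than in unexposed cells (log2 fold change 0.33 ± 0.06, edgeR adjusted p = 5.59e-05) and than at 1:40000 (log2 fold change 0.24 ± 0.06, edgeR adjusted p = 0.00179), the second of which was lost with no low-count filter (0.17).

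BUB1B, which encodes BUBR1, had 39.5, 31.7, 40.4, 41.5 and 33.4 CPM at 1:10000, 44.8, 47.0, 43.8, 42.6 and 38.3 CPM at 1:40000 and 49.7, 52.2, 51.5, 52.8 and 58.0 CPM in unexposed cells. Both dilutions lay below all unexposed libraries, with falls of -0.50 ± 0.08 at 1:10000 (edgeR adjusted p = 8.58e-06) and -0.30 ± 0.08 at 1:40000 (edgeR adjusted p = 0.00334, and 0.0603 with no low-count filter). It was lower at 1:10000 than at 1:40000 by 0.20 on the log2 scale (edgeR adjusted p = 0.0385), which was lost without 1:10000 replicate 2 or 5 or 1:40000 replicate 1, 2, 3 or 4 (log2 fold change -0.21 to -0.14). That call was lost too with RLE size factors, DESeq2, a fit on the compared groups alone, without 1:40000 replicates 1 and 2 together or with the trend on coding length removed (-0.21 to -0.13). BUB1B-PAK6 overlaps 10.2% of BUB1B exon bases on the same strand. ZWINT, which links the checkpoint to the outer kinetochore, fell at 1:10000 to 102 ± 7.21 CPM and at 1:40000 to 129 ± 11.1 CPM, against 161 ± 16.8 CPM in unexposed cells (log2 fold change -0.67 ± 0.08, edgeR adjusted p = 3.15e-08 and log2 fold change -0.33 ± 0.08, edgeR adjusted p = 7.72e-04). The kinases BUB1 and TTK and the centromeric histone CENPA were called in none of the 3 comparisons as fitted. BUB1 was called between the dilutions without 1:40000 replicate 1 (log2 fold change 0.19), without 1:40000 replicates 1 and 2 together (0.26, edgeR adjusted p = 0.00269) and with the trend on coding length removed (0.21, edgeR adjusted p = 0.0197). With that trend removed it was also called at 1:10000 against unexposed cells (0.23, edgeR adjusted p = 0.00961). TTK was called between the dilutions without 1:40000 replicates 1 and 2 together (0.28, edgeR adjusted p = 0.0194). As fitted, the log2 fold changes of BUB1, TTK and CENPA against unexposed cells lay at 0.12 ± 0.07, 0.12 ± 0.09 and 0.12 ± 0.09 at 1:10000 and at -0.02 ± 0.07, -0.06 ± 0.09 and 0.04 ± 0.09 at 1:40000.

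The spindle kinesins moved downwards, 5 of 7 at 1:10000 and 6 of 7 at 1:40000, with none higher. Among all tested genes 36.2% were called lower at 1:10000 and 26.0% at 1:40000. KIF14, which acts in cytokinesis with citron kinase, had 17.8, 14.9, 14.8, 19.98 and 15.8 CPM at 1:10000, 24.96, 28.3, 26.7, 27.0 and 23.1 CPM at 1:40000 and 45.1, 41.5, 45.7, 45.0 and 45.2 CPM in unexposed cells. The 3 groups did not overlap, and the fall was 2.66-fold at 1:10000 (log2 fold change -1.41 ± 0.09, edgeR adjusted p = 8.38e-13) and 1.73-fold at 1:40000 (log2 fold change -0.79 ± 0.09, edgeR adjusted p = 3.07e-08), with -0.63 ± 0.09 between the dilutions (edgeR adjusted p = 3.18e-06). KIF20A, the kinesin that carries the passenger complex to the central spindle, had 101, 109, 92.7, 97.3 and 98.4 CPM at 1:10000, 151, 144, 137, 133 and 133 CPM at 1:40000 and 176, 208, 219, 225 and 210.1 CPM in unexposed cells. It too separated the groups in full (log2 fold change -1.07 ± 0.07, edgeR adjusted p = 4.81e-13 at 1:10000, log2 fold change -0.58 ± 0.07, edgeR adjusted p = 7.04e-08 at 1:40000). Between the dilutions KIF20A differed by -0.49 ± 0.07 (edgeR adjusted p = 1.12e-06). BRD8 and CDC23 overlap 3.34% and 1.72% of its exon bases on the opposite strand, and no strand setting was given.

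KIF11, the motor that pushes spindle poles apart, averaged 104 ± 6.93 CPM at 1:10000, 122 ± 7.21 CPM at 1:40000 and 152 ± 11.1 CPM in unexposed cells (log2 fold change -0.55 ± 0.07, edgeR adjusted p = 3.86e-08 at 1:10000, log2 fold change -0.32 ± 0.06, edgeR adjusted p = 1.63e-04 at 1:40000). KIF4A, a chromosome-bound kinesin that works with condensin, averaged 59.8 ± 2.72 CPM at 1:10000, 75.7 ± 4.92 CPM at 1:40000 and 94.2 ± 2.90 CPM in unexposed cells (log2 fold change -0.65 ± 0.06, edgeR adjusted p = 1.28e-09 and log2 fold change -0.30 ± 0.06, edgeR adjusted p = 1.98e-04). In both genes the 3 groups did not overlap, and both were lower at 1:10000 than at 1:40000 (-0.23 ± 0.07 and -0.35 ± 0.06). KIF18A, which dampens chromosome movements, fell by 0.39 at 1:10000 and 0.33 at 1:40000 on the log2 scale (edgeR adjusted p = 0.00279 and 0.0119, the second 0.100 with no low-count filter). KIF23, the motor of centralspindlin, was called at 1:40000 (log2 fold change -0.25 ± 0.09, edgeR adjusted p = 0.0297), which was lost without 1:40000 replicate 1 or 3 or unexposed replicate 3, 4 or 5 (log2 fold change -0.24 to -0.18), and with upper-quartile scaling, DESeq2, no low-count filter, without 1:40000 replicates 1 and 2 together or with the trend on coding length removed (-0.24 to -0.17). KIF23 stood at -0.13 ± 0.10 at 1:10000. KIF2C, a microtubule depolymerase, averaged 95.6 ± 9.63 CPM at 1:10000, 93.6 ± 5.56 CPM at 1:40000 and 95.4 ± 9.89 CPM in unexposed cells and was called in no comparison.

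Among the microtubule-associated proteins of the spindle, ASPM fell and HMMR rose. ASPM, which focuses spindle poles and is mutated in primary microcephaly, had 29.8, 25.6, 39.7, 39.7 and 33.2 CPM at 1:10000, 61.0, 68.7, 75.7, 74.0 and 61.7 CPM at 1:40000 and 131, 114, 108, 128 and 122 CPM in unexposed cells. No group overlapped another, and ASPM was 3.57-fold lower at 1:10000 (log2 fold change -1.83 ± 0.10, edgeR adjusted p = 4.50e-14) and 1.77-fold lower at 1:40000 (log2 fold change -0.82 ± 0.09, edgeR adjusted p = 7.14e-08) than in unexposed cells. Between the dilutions the difference was -1.01 ± 0.10 (edgeR adjusted p = 7.88e-09). HMMR, a spindle pole adaptor, had 173, 160.1, 158, 154 and 149 CPM at 1:10000, 133, 147, 123, 104 and 98.1 CPM at 1:40000 and 132, 118, 133, 134 and 126 CPM in unexposed cells. Each 1:10000 library lay above every other library of either group (log2 fold change 0.31 ± 0.08, edgeR adjusted p = 0.00204 against unexposed cells and log2 fold change 0.40 ± 0.08, edgeR adjusted p = 2.04e-04 against 1:40000). At 1:40000 HMMR was called lower than in unexposed cells without 1:40000 replicates 1 and 2 together (-0.23).

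DLGAP5, which stabilises kinetochore fibres, fell at both dilutions (log2 fold change -0.34 ± 0.09, edgeR adjusted p = 0.00137 at 1:10000 and log2 fold change -0.28 ± 0.09, edgeR adjusted p = 0.00709 at 1:40000, and 0.0820 there with no low-count filter). TPX2, the activator of Aurora A, averaged 489.6 ± 43.2 CPM at 1:10000, 502 ± 50.2 CPM at 1:40000 and 516 ± 36.4 CPM in unexposed cells and was called in no comparison. PRC1, which bundles the central spindle, had 0.763 to 1.77 CPM at 1:10000, 0.382 to 1.07 CPM at 1:40000 and 0.685 to 2.00 CPM in unexposed cells, and NUSAP1 lay at or under 0.444 CPM in every library. GENCODE 29 lists a second gene on the same strand over 62.2% of NUSAP1 exon bases, and the overlapping genes at PRC1 cover 58.4% of its exon bases. Levels of NUSAP1 and PRC1 are therefore uncertain.

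Cytokinesis genes did not follow a single direction. ECT2, the exchange factor that switches on RhoA at the division plane, had 246, 201, 194, 202 and 183 CPM at 1:10000, 122, 119, 127, 124 and 111 CPM at 1:40000 and 122, 109, 133, 143 and 133 CPM in unexposed cells. At 1:10000 each library exceeded every other library of the study, and ECT2 was 1.602-fold higher than in unexposed cells (log2 fold change 0.68 ± 0.08, edgeR adjusted p = 2.13e-08) and 1.70-fold higher than at 1:40000 (log2 fold change 0.76 ± 0.08, edgeR adjusted p = 7.76e-09). At 1:40000 it stood at -0.08 ± 0.08 against unexposed cells. ANLN, the anillin that scaffolds the contractile ring, had 158, 160.4, 135, 134 and 138 CPM at 1:10000, 123, 118, 126, 128 and 123 CPM at 1:40000 and 144, 131, 158, 157 and 152 CPM in unexposed cells. It fell at 1:40000 (log2 fold change -0.26 ± 0.07, edgeR adjusted p = 0.00206), with each 1:40000 library below each of the others, and was higher at 1:10000 than at 1:40000 (log2 fold change 0.22 ± 0.07, edgeR adjusted p = 0.0052). Both calls of ANLN were lost with no low-count filter (-0.18 and 0.16).

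CEP55, which recruits the abscission machinery, averaged 108 ± 5.83 CPM at 1:10000, 87.4 ± 6.37 CPM at 1:40000 and 90.3 ± 21.7 CPM in unexposed cells. It was higher at 1:10000 than at 1:40000 (log2 fold change 0.30 ± 0.12, edgeR adjusted p = 0.0343) without overlap between those groups, a call lost without 1:10000 replicate 1 or 3 or 1:40000 replicate 1, 4 or 5 (log2 fold change 0.27 to 0.30). The call was lost too with upper-quartile scaling, with no low-count filter or without 1:40000 replicates 1 and 2 together (0.24 to 0.31). Against unexposed cells CEP55 was called at 1:10000 without unexposed replicate 3, 4 or 5 (log2 fold change 0.30 to 0.35). It was called too with RLE size factors, TMM from protein-coding genes of unchanged version, DESeq2, the replicate block or in the subset of genes without annotation doubts (0.27 to 0.28). Unexposed replicates 1 and 2 were well below replicates 3 to 5 for this gene, with 65.7 and 69.3 CPM beside 115, 101 and 101 CPM. As fitted, all 3 cytokinesis genes were higher at the stronger than at the weaker dilution, as were 28.3% of all tested genes.

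The condensins, which shape mitotic chromosomes, were lower than in unexposed cells as fitted, all 4 at 1:10000 and all 4 at 1:40000, with medians of -0.40 and -0.31, although the calls of NCAPG were lost in some alternatives. In these comparisons 36.2% and 26.0% of all tested genes were called lower. SMC2, the ATPase subunit shared by both condensin complexes, had 102, 78.8, 95.5, 94.3 and 93.6 CPM at 1:10000, 105, 116, 115, 114 and 110.0 CPM at 1:40000 and 146, 148, 149, 158 and 155 CPM in unexposed cells. The 3 groups did not overlap (log2 fold change -0.70 ± 0.06, edgeR adjusted p = 3.63e-10 at 1:10000, log2 fold change -0.44 ± 0.06, edgeR adjusted p = 2.25e-06 at 1:40000 and log2 fold change -0.27 ± 0.06, edgeR adjusted p = 8.83e-04 between the dilutions). SMC4, its partner ATPase, had 205, 156, 177, 176 and 159 CPM at 1:10000, 199, 217, 184, 187 and 165 CPM at 1:40000 and 255, 228, 239, 242 and 241 CPM in unexposed cells. Every exposed library lay below every unexposed one (log2 fold change -0.46 ± 0.07, edgeR adjusted p = 3.65e-06 and log2 fold change -0.35 ± 0.07, edgeR adjusted p = 2.81e-04), and the dilutions overlapped. Between the dilutions SMC4 was called lower at 1:10000 without 1:10000 replicate 1 (log2 fold change -0.17). TRIM59 and IFT80 overlap 18.5% and 7.18% of SMC4 exon bases on the opposite strand, and SMC4 has 1 named pseudogene.

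NCAPH, the kleisin of condensin I, fell to 56.9 ± 2.47 CPM at 1:10000 and 58.6 ± 2.69 CPM at 1:40000, against 71.7 ± 8.18 CPM in unexposed cells (log2 fold change -0.33 ± 0.08, edgeR adjusted p = 3.26e-04 and log2 fold change -0.28 ± 0.07, edgeR adjusted p = 0.00224, and 0.0515 with no low-count filter). NCAPG, a HEAT-repeat subunit of condensin I, fell to 88.4 ± 5.48 and 85.4 ± 6.10 CPM, against 101 ± 11.3 CPM (log2 fold change -0.19 ± 0.08, edgeR adjusted p = 0.0257 and log2 fold change -0.24 ± 0.07, edgeR adjusted p = 0.00849). The first of these was lost without 1:10000 replicate 2 or 4 or unexposed replicate 3 or 4 (log2 fold change -0.17 to -0.15), with DESeq2 or no low-count filter (-0.18 to -0.17) and with the trend on coding length removed (-0.10, edgeR adjusted p = 0.271). The second was lost with no low-count filter and without 1:40000 replicates 1 and 2 together (-0.18 to -0.17). LCORL overlaps 33.1% of NCAPG exon bases on the opposite strand. Unexposed replicate 1 was the lowest unexposed library for both genes. Condensins of this set differed between the dilutions in SMC2 alone.

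MKI67, whose protein Ki-67 coats mitotic chromosomes and serves as the standard marker of dividing cells, showed the largest fall among the genes that kept a substantial level (ENSG00000148773, chr10:128096659-128126385, minus strand, GENCODE 29 on GRCh38). It had 74.8, 64.3, 78.1, 80.9 and 72.3 CPM at 1:10000, 223, 195, 178, 205 and 182 CPM at 1:40000 and 361, 355, 330.4, 359.8 and 348 CPM in unexposed cells. Each group stood clear of the others, with MKI67 4.73-fold lower at 1:10000 (log2 fold change -2.24 ± 0.07, edgeR adjusted p = 6.05e-19) and 1.78-fold lower at 1:40000 (log2 fold change -0.84 ± 0.07, edgeR adjusted p = 7.46e-11) than in unexposed cells. Between the dilutions it was 2.65-fold lower at the stronger one (log2 fold change -1.41 ± 0.07, edgeR adjusted p = 6.05e-14). TOP2A, topoisomerase II alpha and likewise widely used as a proliferation marker, had 476, 457, 438, 402 and 418 CPM at 1:10000, 592, 585, 492, 476 and 446 CPM at 1:40000 and 461, 464, 479.7, 498 and 481 CPM in unexposed cells. The groups overlapped, and TOP2A was not called against unexposed cells at 1:10000 (-0.12 ± 0.07, edgeR adjusted p = 0.126) or at 1:40000 (0.12 ± 0.07, edgeR adjusted p = 0.16). At 1:40000 it was called higher without 1:40000 replicate 5 (log2 fold change 0.17), with upper-quartile scaling (0.17), with no low-count filter (0.20) and with the trend on coding length removed (0.19, edgeR adjusted p = 0.0252).

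Replicates 1 and 2 at 1:40000 were the highest for TOP2A, and without them the difference between the dilutions, -0.24 ± 0.07 (edgeR adjusted p = 0.00525), was no longer called. It was not called either with the trend on coding length removed (-0.085, edgeR adjusted p = 0.315). The ratio of MKI67 to TOP2A in CPM ran from 0.14 to 0.20 at 1:10000, from 0.33 to 0.43 at 1:40000 and from 0.69 to 0.78 in unexposed cells, without overlap. The ratio of MKI67 to CDK1 ran from 0.17 to 0.28 at 1:10000, from 0.60 to 0.76 at 1:40000 and from 1.26 to 1.89 in unexposed cells. MKI67 has 1 annotated pseudogene that could share its reads.

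**Figure D4:**
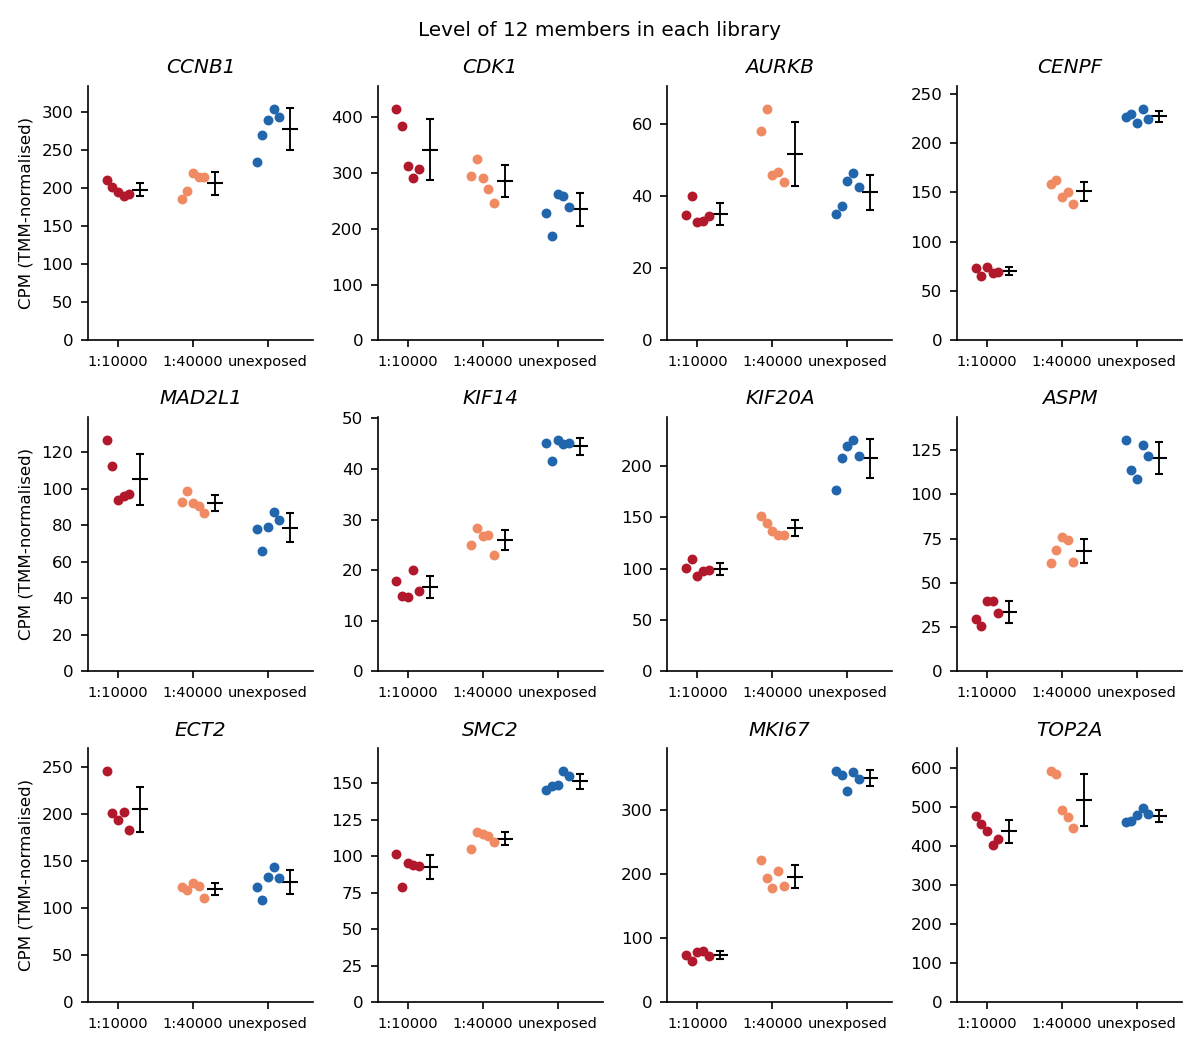
TMM-normalised CPM of 12 genes in each library (points) at 1:10000, at 1:40000 and in unexposed cells, with mean ± SD (black, n = 5), on axes that start at 0. CENPF, KIF14, KIF20A, ASPM, SMC2 and MKI67 step down with no overlap between the groups, ECT2 is raised at 1:10000, and the TOP2A groups overlap.

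Among the genes of anaphase and chromatid separation, ESPL1 and PTTG1 fell at 1:10000, UBE2C rose at 1:40000 and CDC20 was higher at 1:10000 than at 1:40000. ESPL1, the separase that cuts cohesin, had 29.1, 40.5, 37.2, 31.4 and 30.0 CPM at 1:10000, 54.7, 47.4, 45.7, 45.6 and 48.8 CPM at 1:40000 and 51.9, 59.5, 51.03, 54.3 and 55.9 CPM in unexposed cells. It was lower at 1:10000 than in unexposed cells (log2 fold change -0.71 ± 0.09, edgeR adjusted p = 1.34e-07) and than at 1:40000 (log2 fold change -0.54 ± 0.09, edgeR adjusted p = 1.34e-05), with no overlap in either case. At 1:40000 it stood at -0.17 ± 0.09 against unexposed cells. A fall was called there without 1:40000 replicate 1 and without 1:40000 replicates 1 and 2 together (log2 fold change -0.23 for both). PTTG1, or securin, the inhibitor of separase, fell at 1:10000 to 80.4 ± 12.1 CPM, against 99.5 ± 6.55 CPM in unexposed cells (log2 fold change -0.31 ± 0.08, edgeR adjusted p = 0.00142), and averaged 94.4 ± 5.01 CPM at 1:40000. It was lower at 1:10000 than at 1:40000 (log2 fold change -0.23 ± 0.08, edgeR adjusted p = 0.0164), a call lost without 1:10000 replicate 3 or 5 (log2 fold change -0.19 to -0.18) and without 1:40000 replicates 1 and 2 together (-0.18).

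CDC20, the activator of the anaphase-promoting complex, averaged 162 ± 7.76 CPM at 1:10000, 127 ± 10.5 CPM at 1:40000 and 145 ± 17.6 CPM in unexposed cells and was higher at 1:10000 than at 1:40000 in every library (log2 fold change 0.34 ± 0.07, edgeR adjusted p = 3.61e-04). Its fall at 1:40000 against unexposed cells (log2 fold change -0.18 ± 0.07, edgeR adjusted p = 0.0426) was lost without 1:10000 replicate 2 or 5 or 1:40000 replicate 2, 3 or 4 or unexposed replicate 3, 4 or 5 (log2 fold change -0.18 to -0.14). It was lost too with upper-quartile scaling, RLE size factors, TMM from protein-coding genes of unchanged version, DESeq2, no low-count filter or a fit on the compared groups alone (-0.18 to -0.10). At 1:10000 CDC20 was called higher than in unexposed cells without 1:10000 replicate 2 or 1:40000 replicate 1 or 2 or unexposed replicate 3 or 4 (log2 fold change 0.16 to 0.20). It was called too with RLE size factors, TMM from protein-coding genes of unchanged version, DESeq2, a fit on the compared groups alone or without 1:40000 replicates 1 and 2 together (0.17 to 0.18). UBE2C, the ubiquitin-conjugating enzyme of that complex, rose at 1:40000 (log2 fold change 0.20 ± 0.07, edgeR adjusted p = 0.015), with each 1:40000 library above each unexposed library, and stood at 0.11 ± 0.07 at 1:10000 (edgeR adjusted p = 0.156). The rise was lost without 1:40000 replicates 1 and 2 together (edgeR adjusted p = 0.0538). Between the dilutions UBE2C was called lower at 1:10000 with the trend on coding length removed (-0.17). UBE2C has 4 annotated pseudogenes. FOXM1, the transcription factor of late cell cycle genes, had 219.6, 233, 242, 252 and 251 CPM at 1:10000, 357, 349, 309, 346 and 339 CPM at 1:40000 and 311, 349, 405, 393 and 399.8 CPM in unexposed cells. It fell at 1:10000 (log2 fold change -0.63 ± 0.07, edgeR adjusted p = 8.09e-09), below every library of both other groups (log2 fold change -0.50 ± 0.07, edgeR adjusted p = 8.01e-07 against 1:40000), and stood at -0.13 ± 0.07 at 1:40000 against unexposed cells. A fall was called there without unexposed replicate 1 (log2 fold change -0.17). ITFG2 overlaps 15.9% of FOXM1 exon bases.

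Set side by side, the role groups differed in their counts. For comparison, 34.8% of all tested genes were called higher and 36.2% lower at 1:10000. At 1:10000, the cyclins, CDK1 and CDC25 genes had 3 higher and 2 lower of 6, with a median log2 fold change of 0.04. Kinetochore and checkpoint genes had 2 higher and 5 lower of 12 and a median of 0.05. The spindle kinesins had 0 higher and 5 lower of 7 and a median of -0.55, and the condensins 0 higher and 4 lower of 4 and a median of -0.40. At 1:40000 the medians were 0.03 for the cyclin group, -0.18 for the kinetochore group, -0.32 for the kinesins and -0.31 for the condensins. Between the dilutions they were 0.02, 0.15, -0.23 and -0.08 for the same groups. Summed CPM of the kinesins was 461 ± 22.4 at 1:10000, 539 ± 15.5 at 1:40000 and 693 ± 47.6 in unexposed cells. For the cyclin group it was 1004 ± 85.2, 941 ± 37.9 and 960.0 ± 95.1 CPM at 1:10000, at 1:40000 and in unexposed cells. Differences between role groups were not tested.

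Per kilobase of exon, so that genes can be compared, UBE2C and TPX2 had the highest levels of the set in all 3 groups, with 182 and 136 FPKM at 1:10000, 194 and 139 FPKM at 1:40000 and 168 and 143 FPKM in unexposed cells. CDK1 ranked 3 of 52 at 1:10000, 6 at 1:40000 and 10 in unexposed cells. MKI67 ranked 43 at 1:10000 (5.78 FPKM), 35 at 1:40000 (15.3 FPKM) and 20 in unexposed cells (27.4 FPKM). Apart from PRC1 and NUSAP1, the lowest level in unexposed cells was that of CENPE, with 3.77 FPKM, beside 1.52 FPKM at 1:10000 and 1.62 FPKM at 1:40000.

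Of the 7 genes at least 2-fold lower at 1:10000, all but KIF20A and SPC25 have long coding sequences. ASPM, MKI67, CENPF and CENPE have the 4 longest of the set, with 10431, 9768, 9342 and 8103 bases in GENCODE 29, and KIF14 has 4944 bases. Long genes in general were lower at 1:10000. Of the 180 tested genes with over 7500 coding bases, 60.0% were called lower at 1:10000 than in unexposed cells, with a median log2 fold change of -0.49, whereas the median was -0.01 for genes of up to 1500 coding bases. Between the dilutions the medians were -0.32 and 0.03, and at 1:40000 against unexposed cells -0.09 and -0.01. The 4 longest members had medians of -1.76 at 1:10000 and -0.83 at 1:40000 against unexposed cells and -1.05 between the dilutions. Between the dilutions 3 of these 4 were called lower, all but CENPE. Its level was 1.52 FPKM at 1:10000 and 1.62 FPKM at 1:40000, beside 3.77 FPKM in unexposed cells. The range from the 5% to the 95% point of those long genes ran from -1.93 to 0.96 at 1:10000, so MKI67 at -2.24 lay below that range and ASPM, CENPF and CENPE within it.

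With the trend on coding length removed from each library, an alternative chosen after seeing the data, MKI67 stood at -1.80, ASPM at -1.38, CENPF at -1.25, CENPE at -0.90 and KIF14 at -1.17 at 1:10000 against unexposed cells, all of them still called. The shorter members were less uniform. Of the 19 members with up to 1500 coding bases, 8 were called lower at 1:10000, with a median of 0.11. Of all tested genes of that length 35.4% were called lower, with a median of -0.01. The cause of the relation between coding length and fold change was not tested.

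**Figure D5:**
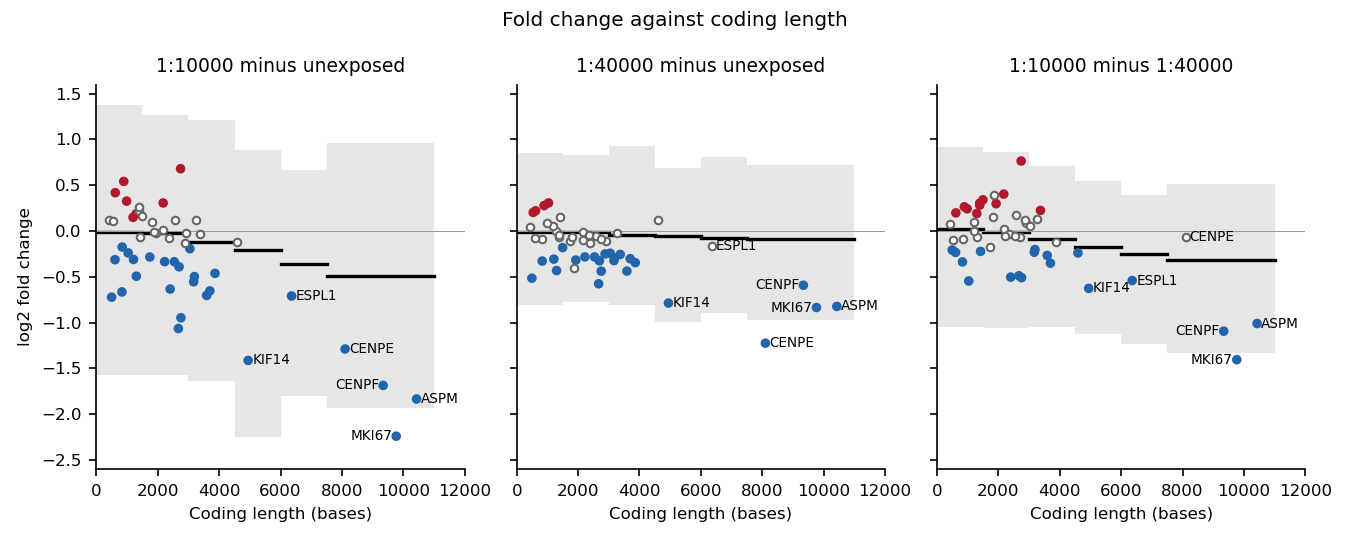
Log2 fold change of 50 tested genes of the set (points, SPC25 left out because it lies beyond the axis) against coding length in bases, in the 3 comparisons, over the median (black line) and the range from 5% to 95% (grey) of all tested genes in each class of coding length. Blue points are lower and red points higher at an edgeR adjusted p under 0.05, and open points are not called. Medians of all genes drop with coding length at 1:10000, and MKI67, ASPM, CENPF and CENPE lie below them.

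Other genes of the same pathways were read from 8 further lists of 158 genes, of which 154 were tested, and each gene said below to rise, fall or be higher or lower passed an edgeR adjusted p under 0.05. At 1:10000 42 higher and 71 lower were called against unexposed cells, 73.4% of the 154, where 71.0% of all tested genes were. At 1:40000 19 higher and 52 lower were called, 46.1%, against 52.1% of all tested genes. Between the dilutions 34 higher and 52 lower were called, 55.8%, against 57.3%. The counts of each list below stand beside these shares of all tested genes: 34.8% higher and 36.2% lower at 1:10000, and 26.1% and 26.0% at 1:40000. Several lists lay near them, such as the G1 genes at 1:10000 with 33.3% higher and 33.3% lower. Of the 35 other kinetochore and centromere genes, 7 higher and 19 lower were called at 1:10000 and 2 higher and 16 lower at 1:40000. KNL1, the scaffold of the outer kinetochore, averaged 35.2 CPM at 1:10000, 58.7 CPM at 1:40000 and 73.5 CPM in unexposed cells (log2 fold change -1.05 ± 0.08, edgeR adjusted p = 1.15e-11 at 1:10000). SGO2, a protector of centromeric cohesion, fell at 1:40000 (log2 fold change -0.62 ± 0.10, edgeR adjusted p = 8.10e-06), and CENPH, an inner kinetochore subunit, rose at both dilutions (0.67 ± 0.10 and 0.56 ± 0.10, edgeR adjusted p = 1.53e-06 and 3.70e-05). ZWILCH, of the complex that recruits dynein, rose at 1:10000 (log2 fold change 0.33 ± 0.07, edgeR adjusted p = 2.88e-04), and CENPV rose at 1:40000 (log2 fold change 0.46 ± 0.09, edgeR adjusted p = 8.46e-05). SKA1, of the ring that couples kinetochores to microtubules, had at most 0.153 CPM at 1:10000 and 0.102 CPM at 1:40000 and at least 12.2 CPM in unexposed cells. ZW10 was higher at 1:10000 than at 1:40000 (log2 fold change 0.52 ± 0.07, edgeR adjusted p = 2.77e-07).

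Of the 6 other mitotic kinesins, 1 higher and 5 lower were called at 1:10000 and 1 higher and 2 lower at 1:40000. KIF20B, a motor of late cytokinesis, averaged 43.6 CPM at 1:10000, 65.3 CPM at 1:40000 and 93.6 CPM in unexposed cells (log2 fold change -1.09 ± 0.08, edgeR adjusted p = 3.87e-12 at 1:10000 and log2 fold change -0.51 ± 0.07, edgeR adjusted p = 3.21e-06 at 1:40000). KIF2A, a microtubule depolymerase, rose at both dilutions (log2 fold change 0.72 ± 0.06, edgeR adjusted p = 3.21e-10 and log2 fold change 0.41 ± 0.06, edgeR adjusted p = 8.10e-06). KIF18B was lower at 1:10000 than at 1:40000 (log2 fold change -0.51 ± 0.09, edgeR adjusted p = 2.09e-05). KIFC1, a minus-end motor, averaged 0.46 CPM at 1:10000, 0.609 CPM at 1:40000 and 36.1 CPM in unexposed cells and was near 0 in every rinse aid library, as SPC25 and SKA1 were. For KIFC1 and SKA1, as for SPC25, this cannot be told apart from the change of aligner and annotation. Of the 15 other condensin and cohesin genes, 5 higher and 7 lower were called at 1:10000 and 0 higher and 5 lower at 1:40000. NCAPD2 of condensin I fell at 1:10000 (log2 fold change -0.72 ± 0.07, edgeR adjusted p = 4.42e-10), as did the cohesin ATPase SMC1A (log2 fold change -0.60 ± 0.05, edgeR adjusted p = 3.86e-10), while the cohesin subunits STAG2 (log2 fold change 0.66 ± 0.07, edgeR adjusted p = 1.57e-08) and SMC3 (log2 fold change 0.27 ± 0.06, edgeR adjusted p = 2.71e-04) rose. NIPBL, the cohesin loader, and STAG1 fell at 1:40000 (-0.52 ± 0.07 and -0.36 ± 0.07, edgeR adjusted p = 1.01e-06 and 1.54e-04).

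For the 17 subunits and inhibitors of the anaphase-promoting complex, 3 higher and 7 lower were called at 1:10000 and 2 higher and 6 lower at 1:40000. UBE2S, the enzyme that extends its ubiquitin chains, averaged 113 CPM at 1:10000, 69.6 CPM at 1:40000 and 49.9 CPM in unexposed cells (log2 fold change 1.18 ± 0.11, edgeR adjusted p = 4.77e-09 at 1:10000). The subunits ANAPC2 and ANAPC15 fell at both dilutions, by 1.17 and 1.06 at 1:10000 and by 0.80 and 0.75 at 1:40000 on the log2 scale. ANAPC10 rose at 1:10000 (log2 fold change 0.97 ± 0.19, edgeR adjusted p = 8.37e-05) and ANAPC16 at 1:40000 (log2 fold change 0.17 ± 0.06, edgeR adjusted p = 0.0253), which was lost without 1:40000 replicate 3, 4 or 5 or unexposed replicate 2 (log2 fold change 0.14 to 0.16), and ANAPC1 was lower at 1:10000 than at 1:40000 (log2 fold change -0.35 ± 0.07, edgeR adjusted p = 2.46e-04). That difference of ANAPC1 was not called with the trend on coding length removed (-0.15, edgeR adjusted p = 0.0923). Of the 15 genes of mitotic entry control, 7 higher and 4 lower were called at 1:10000 and 4 higher and 4 lower at 1:40000. CCNH and MNAT1, partners of CDK7 in the kinase that activates CDKs, rose at 1:10000 (edgeR adjusted p = 2.60e-13 and 1.91e-08). CCNH averaged 86.5 CPM at 1:10000, 49.0 CPM at 1:40000 and 34.5 CPM in unexposed cells, and MNAT1 averaged 17.5 CPM at 1:10000, 11.7 CPM at 1:40000 and 8.85 CPM in unexposed cells. CDK7 itself averaged 6.70 CPM at 1:10000, 0.528 CPM at 1:40000 and 57.0 CPM in unexposed cells, with a range of 0.819 to 15.7 CPM over the 1:10000 libraries. Its difference from unexposed cells cannot be told apart from the change of aligner and annotation. CCNF and GTSE1 fell at 1:10000 (-1.05 ± 0.08 and -0.85 ± 0.09, edgeR adjusted p = 1.27e-11 and 7.41e-09), and WEE1, the kinase that holds CDK1 inactive, averaged 111 CPM at 1:10000, 133 CPM at 1:40000 and 87.5 CPM in unexposed cells and rose at 1:40000 (log2 fold change 0.60 ± 0.07, edgeR adjusted p = 1.54e-07).

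Of 32 further spindle, centrosome and cytokinesis genes, 8 higher and 16 lower were called at 1:10000 and 3 higher and 13 lower at 1:40000. NUMA1, which organises spindle poles, averaged 135 CPM at 1:10000, 231 CPM at 1:40000 and 286 CPM in unexposed cells (log2 fold change -1.08 ± 0.07, edgeR adjusted p = 2.92e-13 at 1:10000), and PCNT, the pericentriolar scaffold, fell likewise (log2 fold change -1.08 ± 0.09, edgeR adjusted p = 2.17e-10). The augmin subunits HAUS6 and HAUS2 rose at 1:10000 (0.73 ± 0.09 and 0.52 ± 0.08) and HAUS4 at 1:40000 (0.72 ± 0.12). CKAP2 and CKAP2L fell at 1:40000 (-0.47 ± 0.06 and -0.56 ± 0.08). CIT, the citron kinase that works with KIF14, was lower at 1:10000 than at 1:40000 (log2 fold change -0.75 ± 0.07, edgeR adjusted p = 6.40e-09), and TROAP and RAN were higher (0.54 ± 0.08 and 0.35 ± 0.06).

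Upstream regulators were mixed. Of 19 E2F, RB family and MuvB genes, 6 higher and 8 lower were called at 1:10000 and 2 higher and 4 lower at 1:40000. MYBL2, the B-MYB partner of MuvB, averaged 353 CPM at 1:10000, 515 CPM at 1:40000 and 533 CPM in unexposed cells (log2 fold change -0.59 ± 0.06, edgeR adjusted p = 1.12e-08 at 1:10000), and E2F8 averaged 21.7 CPM at 1:10000, 32.1 CPM at 1:40000 and 46.1 CPM in unexposed cells (log2 fold change -1.09 ± 0.10, edgeR adjusted p = 5.49e-10 at 1:10000). E2F6, a repressor of the family, rose at both dilutions (0.87 ± 0.07 and 0.43 ± 0.07), and the MuvB subunit LIN9 rose at 1:10000 (log2 fold change 0.34 ± 0.10, edgeR adjusted p = 0.00361). TFDP1 fell and E2F5 rose at 1:40000 (-0.32 ± 0.08 and 0.34 ± 0.09), and between the dilutions E2F2 was lower and E2F4 higher at 1:10000 (-0.89 ± 0.13 and 0.29 ± 0.07). Of 15 genes of the G1 phase, 5 higher and 5 lower were called at 1:10000 and 5 higher and 2 lower at 1:40000. CCND1, or cyclin D1, averaged 455 CPM at 1:10000, 369 CPM at 1:40000 and 298 CPM in unexposed cells (log2 fold change 0.61 ± 0.06, edgeR adjusted p = 2.49e-09 at 1:10000), and CDKN1B, which encodes the CDK inhibitor p27, averaged 266 CPM at 1:10000, 179 CPM at 1:40000 and 149 CPM in unexposed cells (log2 fold change 0.84 ± 0.09, edgeR adjusted p = 6.98e-09 at 1:10000). CCNE1, or cyclin E1, fell at 1:10000 (log2 fold change -0.89 ± 0.12, edgeR adjusted p = 2.16e-07), CCNE2 fell and CCND3 rose at 1:40000 (-0.54 ± 0.16 and 0.28 ± 0.07), and CDKN2C was lower at 1:10000 than at 1:40000 (log2 fold change -1.45 ± 0.24, edgeR adjusted p = 1.46e-05). CDKN1C averaged 0.112 CPM at 1:10000, 0.0444 CPM at 1:40000 and 3.73 CPM in unexposed cells, a difference that cannot be told apart from the change of aligner and annotation.

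For 22 of the 52 genes none of 3 doubts about annotation was found. Their Ensembl version was the same in both sets of files, no other gene of GENCODE 29 overlapped the exons and no pseudogene carried the gene's name. Refitted with only the 4658 tested genes of this kind, 13 of the 22 were lower and 2 higher at 1:10000 than in unexposed cells, where 1722 of the 4658 were lower and 1650 higher. At 1:40000 11 were lower and 1 was higher, against 1245 lower and 1216 higher of the 4658. Between the dilutions, 11 were lower and 3 higher at 1:10000, against 1422 lower and 1437 higher. The 22 include ASPM, KIF14, INCENP, BIRC5, ESPL1, SMC2, CCNB1, ECT2 and SPC25, and leave out MKI67, CENPF, CENPE, CDK1 and KIF20A. SPC25, although among them, lay near 0 in all 10 HISAT2 libraries. CDK1, CENPE and CENPF changed version, and CCNB2, AURKA, BUB1, BUB3, DLGAP5, SMC4, NCAPG, MKI67, CDC20 and UBE2C have named pseudogenes.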

How the data were processed

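RNA was extracted with the RNeasy Plus Micro Kit and poly(A) libraries were made with the TruSeq RNA Kit, per the labels' protocols. The deposited values are raw counts of reads per gene, 1 file per library. The file headers name RNA STAR for the 5 unexposed libraries and HISAT2 for the 10 rinse aid libraries. The submitters' processing notes list cutadapt, STAR 2.7.9a, featureCounts, DESeq2 and GRCh38. Strand settings are not given in the sources used here.

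The 52 symbols were matched to Ensembl identifiers through a table of gene names, GENCODE 29 gave lengths and overlaps, and the 60557 genes shared by all files were kept. After edgeR's low-count filter, 13157 genes were fitted in R 4.3.3 with edgeR 4.0.16 (TMM scaling, robust quasi-likelihood test, all 15 libraries, no covariate), and p-values were adjusted by Benjamini-Hochberg over all of them. The SE is the log2 fold change over the root of its F statistic. CPM are counts divided by the TMM-scaled library size, on a common scale, and FPKM are those per kilobase of exon. The fit was tested on simulated data. Members, lists and tests were chosen with earlier results of these data known. All 52 members could be named, and of each pathway list the called genes with the smallest adjusted p, at most 2 per direction and comparison. Markers were used for levels only, and 1 leukocyte marker is not reported here. Total counts per library set the precision, and no library was a copy of another: chi-square per degree of freedom between replicates was 1.73 or more. Replicate numbers come from the labels. Deviations of same-numbered libraries correlated at 0.207 to 0.292 between the dilutions. For 1:40000 and unexposed libraries they correlated at 0.09 to 0.274, which overlaps that range. For 1:10000 and unexposed libraries the range was -0.06 to 0.196. With 5 candidate libraries each, a library's best match in another group had its own number in 19 of 30 cases. Same-numbered libraries thus tended to be alike, but what the numbers mark is not given in the labels. The main fit did not pair libraries, and a fit with replicate number as a block was run as an alternative. Alternatives were other scalings, DESeq2 1.42.0, no filter, a subset of genes without annotation doubts, a replicate block, 2-group fits and leaving libraries out.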

Additional observations from a re-analysis of the deposited data

Results flagged for a closer look

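A library was set apart from the other 4 of its group, by Dixon's ratio above 0.71, in 5 of 153 combinations of gene and group, where chance gives about 1 in 20. CCNB2 had 96.7 CPM in unexposed replicate 1, beside 110.0 to 115 CPM in the other libraries of that group. The low PTTG1 value came from the same library, with 87.9 CPM in unexposed replicate 1, beside 101 to 104 CPM in the other libraries of that group. AURKB had 40.1 CPM in 1:10000 replicate 2, beside 32.9 to 34.8 CPM in the other libraries of that group, and PLK4 had 30.2 CPM in 1:40000 replicate 2, beside 22.2 to 23.9 CPM in the other libraries of that group. KIF14 had 41.5 CPM in unexposed replicate 2, beside 45.0 to 45.7 CPM in the other libraries of that group. In KIF14 the deviant library was still far above all rinse aid libraries.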

How the results depend on the processing

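Across 24 alternatives fixed at the outset and the length-trend offset chosen after seeing the data, no log2 fold change of a member changed sign where it was called. Of 3734 recomputed fold changes of members, 3512 kept their side of the threshold, 165 lost the call and 57 gained one. Calls kept in every alternative in which the gene was fitted numbered 24 of 27 lower and 5 of 7 higher at 1:10000, 17 of 25 lower and 0 of 4 higher at 1:40000, and 13 of 18 lower and 4 of 11 higher between the dilutions. Members with annotation doubts, such as MKI67, CENPF, CENPE, KIF20A and CDK1, were not in the subset without such doubts. Their calls therefore did not face that alternative. Refitted on the subset without annotation doubts, which holds fewer genes, 2 members were higher and 13 lower at 1:10000 (median -0.30), 1 higher and 11 lower at 1:40000, and 3 higher and 11 lower between the dilutions (median -0.17). The number higher at 1:40000 was 0 without 1:40000 replicates 1 and 2. Between the dilutions 7 were higher with upper-quartile scaling and 4 with no low-count filter. In these 2 settings the log2 fold changes of all genes shifted from the main fit by medians of -0.048 and -0.069. The shift was thus not particular to the set, and its cause was not tested. Leaving out 1 library in turn gave 6 to 9 higher and 24 to 27 lower at 1:10000 (median -0.25 to -0.15), 2 to 5 higher and 23 to 26 lower at 1:40000 (median -0.23 to -0.16), and 6 to 11 higher and 15 to 19 lower between the dilutions (median -0.08 to -0.01).

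With the replicate block, 9 members were higher and 27 lower at 1:10000, 3 and 25 at 1:40000, and 10 and 19 between the dilutions. The block moved the calls of CDK1, NUF2, CEP55 and CDC25B and of no other member. Against unexposed cells NUF2 and CEP55 were called at 1:10000 with it (edgeR adjusted p = 0.0483 and 0.0481), and libraries matched their own number best in 19 of 30 cases. Among 54 named pathway genes, 2 of 3929 recomputed fold changes changed sign, both with the length-trend offset: ANAPC1 at 1:10000 stood at 0.054 against -0.24 as fitted, and NIPBL between the dilutions at 0.24 against -0.04. The difference of ANAPC1 between the dilutions was also not called with that offset (-0.15). The lowest depth, in 1:40000 replicate 2, limits the precision of weakly expressed genes such as SPC25, NUSAP1 and PRC1.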
